A study of Zea mays with 9 samples.

Results

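Endosperm of maize homozygous for thk1-iso17, a mutant allele of thk1 (thick aleurone1), was compared with WT endosperm at 19 days after pollination. Per the labels all plants were in the B73 inbred background, and the WT libraries carry the name of that inbred in their titles. The comparison used 6 of the 9 libraries of the series, 3 from thk1-iso17 (-/-) and 3 from WT, each a poly(A) RNA library of dissected endosperm described as a biological replicate. How many kernels or plants went into a library is not given in the sources used here, so p-values measure the spread between these libraries. The libraries of the other allele, thk1-iso15, enter below as single values beside identifiers that fell in thk1-iso17.

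The endosperm of a maize kernel consists mainly of the starchy endosperm, which stores starch and protein, and is covered by the aleurone, an outer epidermal layer that secretes enzymes at germination. The gene thk1 takes its name from mutant kernels with extra aleurone layers. It encodes NOT1, the scaffold subunit of the CCR4-NOT complex, which in eukaryotes shortens the poly(A) tails of messenger RNAs and so leads to their decay. In RNA from a whole tissue, fewer cells of a type and less RNA per cell cannot be told apart, and this holds for each difference below.

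The RefSeq gene table named all 208 mitochondrial and all 157 plastid identifiers but 0 of 44146 nuclear gene models, which carry identifiers of the form Zm00001d followed by a number. No role is therefore assigned to a nuclear gene model, nuclear genes are described by level, direction and order of identifier, and 4 of them are given by identifier. For the same reason the level of thk1 itself and the marker genes of endosperm tissues are not analysed here.

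Gene counts per library ranged from 24024943 to 72288973 in WT and from 48102330 to 76651742 in thk1-iso17. Replicate 3 of thk1-iso17 stood apart from the other 5 libraries in organelle RNA. Mitochondrial genes together held 1421 CPM in it (counts scaled to a common library total), against 198 and 203 CPM in thk1-iso17 replicates 1 and 2 and 121 to 263 CPM in WT. It also had the most counts in annotated non-coding RNAs, 1187 CPM against 191 to 379 CPM in the other 5 libraries. On the first principal component of log2 level, which held 52.2% of the variance, WT lay between -69.3 and -49.4, and thk1-iso17 replicates 1, 2 and 3 lay at 67.3, 76.8 and 41.1. The second component, with 19.6% of the variance, placed replicate 2 at -50.0 and replicate 3 at 70.7. The biological coefficient of variation, the relative spread between replicates beyond counting error, was 0.210 in WT and 0.309 in thk1-iso17. It was 0.237 for thk1-iso17 replicates 1 and 2 alone.

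In thk1-iso17 endosperm, 1746 genes were higher and 1398 lower than in WT, 3144 of the 22843 tested, or 13.8% (edgeR quasi-likelihood test on the 6 libraries, Benjamini-Hochberg adjusted p under 0.05). Higher genes made up 7.64% of the genes tested and lower genes 6.12%. With the replicate number as a block in the fit, the counts were nearly equal, with 1936 higher and 1928 lower. Among called genes the rises were the larger changes. The median log2 fold change was 1.35 among higher genes and -0.85 among lower genes, while over all genes tested it was 0.02. A rise of at least 2-fold was found in 1230 of the 1746 higher genes, and a fall of at least 2-fold in 514 of the 1398 lower genes. At 8-fold or more the counts were 216 and 45. Most called genes with large changes were scarce, as given below, so size of change and level are not separated here. The median level of all genes tested was 8.02 CPM in WT (here and below scaled by TMM factors). The higher genes were scarce in WT, with a median level of 3.26 CPM that stood at 7.96 CPM in thk1-iso17. The lower genes were common, with medians of 28.7 CPM in WT and 16.2 CPM in thk1-iso17.

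The 3 thk1-iso17 libraries lay entirely above the 3 WT libraries in 4303 genes and entirely below them in 4023, which is 18.8% and 17.6% of the genes tested and together 36.4%. With replicate 3 left aside, these shares were 27.3% and 26.1%. Leaving out a library cannot create an overlap, so these shares could not fall and their rise says nothing particular about replicate 3. Of the 3144 called genes, 3136 showed no overlap. In the called higher genes the median log2 ratio to the WT mean was 1.06, 1.03 and 0.92 in thk1-iso17 replicates 1, 2 and 3. In the called lower genes it was -0.86, -0.81 and -0.75. Replicate 3 thus had the smallest median departure from WT in both directions, while each of the 3 libraries was the highest in 492 to 662 of the called higher genes.

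**Figure D1:**
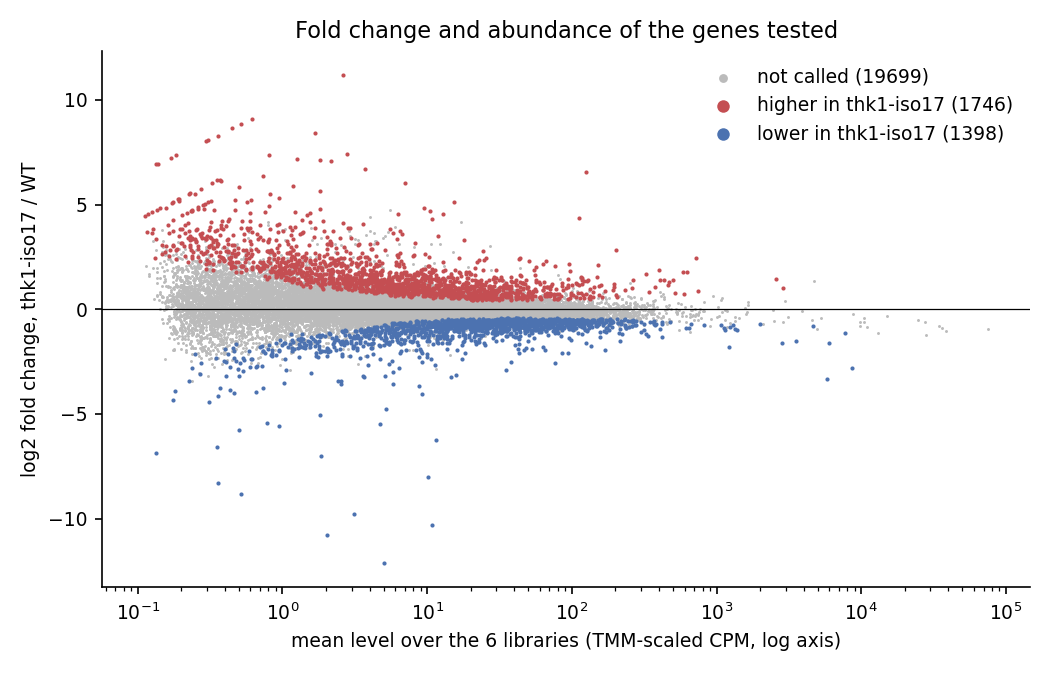
Each point is one of the 22843 genes tested. The horizontal axis gives its mean level over the 6 libraries in CPM on a log axis, the vertical axis the log2 fold change of thk1-iso17 over WT. The 1746 higher genes (red) lie mostly on the left, at low levels, and the 1398 lower genes (blue) extend further to the right.

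Without thk1-iso17 replicate 3 the same edgeR test called 4609 of 23428 genes, or 19.7%, of which 2476 were higher (10.6%) and 2133 lower (9.1%). Of the 3144 genes called with all 6 libraries, 2855 were called in the same direction without it. The remaining 289 were no longer called, and 0 changed sign. A further 1580 genes that had been tested but not called with all 6 libraries were then called. In 1555 of these, replicate 3 lay closer to the WT mean than replicates 1 and 2 did on average. These genes were selected because they were called only without replicate 3, so this count largely follows from the selection. The number of calls depended on single libraries in the other direction as well. It fell to 790 without thk1-iso17 replicate 1, to 2411 without thk1-iso17 replicate 2, and to 875, 1195 and 1262 without WT replicates 1, 2 and 3.

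The direction of change differed along the scale of abundance. Among the 10 genes with the highest mean level over the 6 libraries, 0 were called, although their median log2 fold change was -0.89. Ranks 11 to 100 held 7 higher genes and 20 lower ones. At ranks 101 to 1000 the counts were 52 and 144, and at ranks 1001 to 5000 they were 183 and 442. At ranks 5001 to 10000 the counts were nearly equal, with 338 higher and 339 lower. Below rank 15000, at mean levels up to 3.6 CPM, 689 genes were higher and 186 lower. That range held 411 of the 483 genes that rose at least 4-fold and 73 of the 113 that fell at least 4-fold. Without thk1-iso17 replicate 3 the counts were 70 and 166 at ranks 101 to 1000, 436 and 578 at ranks 5001 to 10000, and 899 and 341 below rank 15000.

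**Figure D2:**
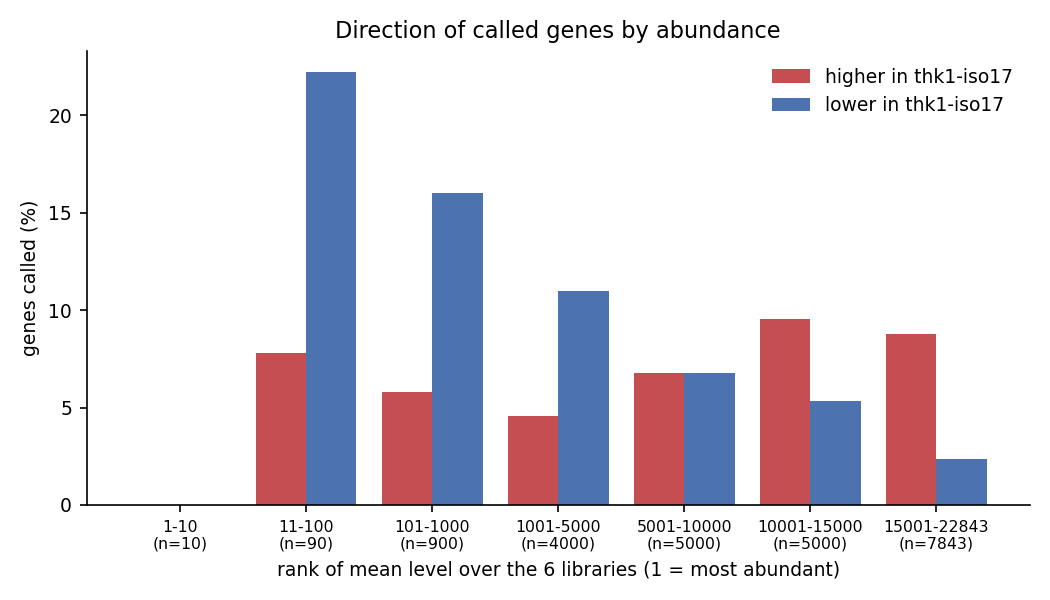
Genes are grouped by the rank of their mean level over the 6 libraries, with the number tested in each group below the bars. Bars give the percentage of each group called higher (red) or lower (blue) in thk1-iso17. Lower calls reach 22.2% at ranks 11 to 100 and 2.37% below rank 15000, where higher calls make up 8.78%.

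The 10 most abundant genes of WT endosperm took 35.3%, 36.1% and 30.2% of gene counts in WT replicates 1, 2 and 3. They took 23.6%, 26.1% and 21.8% in thk1-iso17 replicates 1, 2 and 3. All 3 thk1-iso17 libraries lay below all 3 WT libraries, with a mean of 23.9% ± 2.17 against 33.9% ± 3.23 (SD, n = 3 each; two-sided exact permutation p = 0.1, the smallest that 3 against 3 libraries can give; 0.233 adjusted over 7 library measures). Of these 10 genes, 1 passed the edgeR test, where 13.8% of all genes tested did. This gene, the lowest-ranked of the 10, had 0.876%, 1.72% and 1.26% of gene counts in WT replicates 1, 2 and 3. In thk1-iso17 it held 0.535%, 0.161% and 0.0458%. The thk1-iso17 libraries differed more than 10-fold among themselves, and all lay below WT. On the TMM scale it fell by 2.81 in log2 units (SE 0.76, edgeR adjusted p = 0.0433), or by 2.31 with replicate 3 left out (edgeR adjusted p = 0.0217).

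The other 9 of these genes also had negative log2 fold changes on the TMM scale, from -1.21 to -0.35, with edgeR adjusted p from 0.0602 to 0.435. The gene at rank 5 took 2.34%, 4.52% and 3.18% of WT counts and 2.11%, 2.20% and 1.44% of thk1-iso17 counts. Its groups did not overlap, but its difference of -1.21 on the log2 scale (SE 0.37) missed the threshold with an edgeR adjusted p of 0.0624. The gene at rank 6 took 4.36%, 1.88% and 2.47% in WT and 2.29%, 2.16% and 3.21% in thk1-iso17, so its groups overlapped. The gene at rank 9 took 1.27%, 1.74% and 1.33% in WT and 1.54%, 1.65% and 1.35% in thk1-iso17. Its raw shares overlapped too, while on the TMM scale its log2 fold change was -0.35 (SE 0.28).

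More genes were detected in thk1-iso17 when all libraries were taken at the total count of the smallest, 24024943. The expected number of genes with a count was 25815, 25801 and 25954 in WT replicates 1, 2 and 3. It was 27451, 27183 and 27011 in thk1-iso17. The groups did not overlap, and the means differed by 1358 genes (p = 0.1 by a two-sided exact permutation of the libraries, again the lower limit of the design; 0.233 after adjustment for 7 library measures). Without replicate 3 the thk1-iso17 mean was 27317. Matching the total leaves more counts for the remaining genes in thk1-iso17, where the 10 most abundant genes took a smaller share. With depth matched on TMM-scaled library size, a setting chosen after seeing the data, the difference was 841 genes. The libraries then had 25815, 26010 and 25856 genes in WT and 26929, 26873 and 26401 in thk1-iso17, still without overlap.

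Some genes were close to silent in one genotype. With a mean of at least 1 CPM in thk1-iso17 and a WT mean at or under 10% of it, 98 genes were near silent in WT, of which 80 passed the edgeR test. The median level of these 80 genes was 0.135 CPM in WT and 2.57 CPM in thk1-iso17. In 20 of the 80, the lowest thk1-iso17 library stood above 10 times the highest WT library. Their levels differed between thk1-iso17 replicates, as the highest library stood at a median of 2.51 times the lowest. Replicate 1 was the highest in 26 of them, replicate 2 in 33 and replicate 3 in 21. By the reverse rule 23 genes were near lost in thk1-iso17, and all 23 passed the edgeR test. Both rules select on the difference between the groups in the same libraries, so these passing counts largely follow from the selection. Over all genes tested 13.8% passed. Without thk1-iso17 replicate 3 the rules gave 128 and 26 genes, of which 86 and 18 were the same.

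Of the genes near silent in WT, the most abundant in thk1-iso17 had 33, 298 and 47 counts in WT replicates 1, 2 and 3 (2.56 ± 2.29 CPM; SD, n = 3). In thk1-iso17 replicates 1, 2 and 3 it had 28731, 5074 and 19464 counts (248 ± 130 CPM; SD, n = 3). Each thk1-iso17 library lay far above each WT library, and the mean rise was 6.54 on the log2 scale (SE 0.75, edgeR adjusted p = 0.00322). Genes with 0 counts in all 3 WT libraries and at least 10 in every thk1-iso17 library numbered 14, with between 49 and 1098 counts over the thk1-iso17 group, and 11 of them passed the edgeR test. The reverse was found for 4 genes, all called, with between 90 and 1314 counts over the WT group. These 14 and 4 genes were again selected by their counts in the libraries tested, so their calls largely follow from the selection.

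Zm00001d017032 had the largest fitted rise among 1080 higher nuclear gene models that had a group mean of at least 5 CPM, no overlap between the groups and the same direction without replicate 3. It had 0 counts in each WT library and 484, 37 and 577 counts in thk1-iso17 replicates 1, 2 and 3, or 5.32, 0.712 and 9.76 CPM. Replicate 2 was low, but it held 37 counts where no WT library held any. With 3 counts over the 3 WT libraries taken as the floor, the pooled thk1-iso17 level was at least 234-fold higher (edgeR adjusted p = 0.0127). This bound covers counting error only and not the spread between replicates. By voom the adjusted p was 0.0531.

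Zm00001d000506 rose with far less spread. It had 0, 1 and 3 counts in WT replicates 1, 2 and 3, or 0, 0.0174 and 0.0595 CPM. In thk1-iso17 it had 562, 263 and 323 counts, or 6.17, 5.06 and 5.46 CPM. The 3 mutant libraries lay close together and well above WT. The mean was 0.0256 ± 0.0306 CPM in WT and 5.57 ± 0.562 CPM in thk1-iso17 (SD, n = 3 each), a rise of 7.40 on the log2 scale (SE 0.50, edgeR adjusted p = 0.000512). Pooled counts gave a ratio of 183, with a 95% exact interval from 71.4 to 674 that covers counting error only.

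Zm00001d013557 had the largest fitted fall among 1217 lower nuclear gene models under the same rule. It had 205, 576 and 533 counts in WT replicates 1, 2 and 3, or 9.74, 10 and 10.6 CPM, and 0 counts in each thk1-iso17 library. The WT libraries were nearly equal, and not a single count was found in thk1-iso17. Counts rest on reads aligned to the B73 reference, so for this gene and its neighbours below, absent RNA and a copy that is missing or differs in sequence in these plants cannot be told apart. With 3 counts over the 3 thk1-iso17 libraries taken as the floor, its pooled level was at least 686-fold lower, for counting error only (edgeR adjusted p = 0.000237). In the thk1-iso15 libraries it had 132, 496 and 0 counts, so thk1-iso15 replicate 3 shared the absence and the other thk1-iso15 libraries did not.

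Zm00001d013606 had the next largest fall. It had 483, 1186 and 1065 counts in WT replicates 1, 2 and 3, or 22.9, 20.6 and 21.1 CPM. In thk1-iso17 it had 2, 0 and 1 counts. Pooled counts gave a WT to thk1-iso17 ratio of 1430, with a 95% exact interval from 488 to 6920 for counting error only (edgeR adjusted p = 8.27e-06). The thk1-iso15 libraries had 192, 1036 and 0 counts, again with none in replicate 3. Both falls and the rise of Zm00001d000506 passed the test under every alternative run for them, including the fits that left out 1 library.

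**Figure D3:**
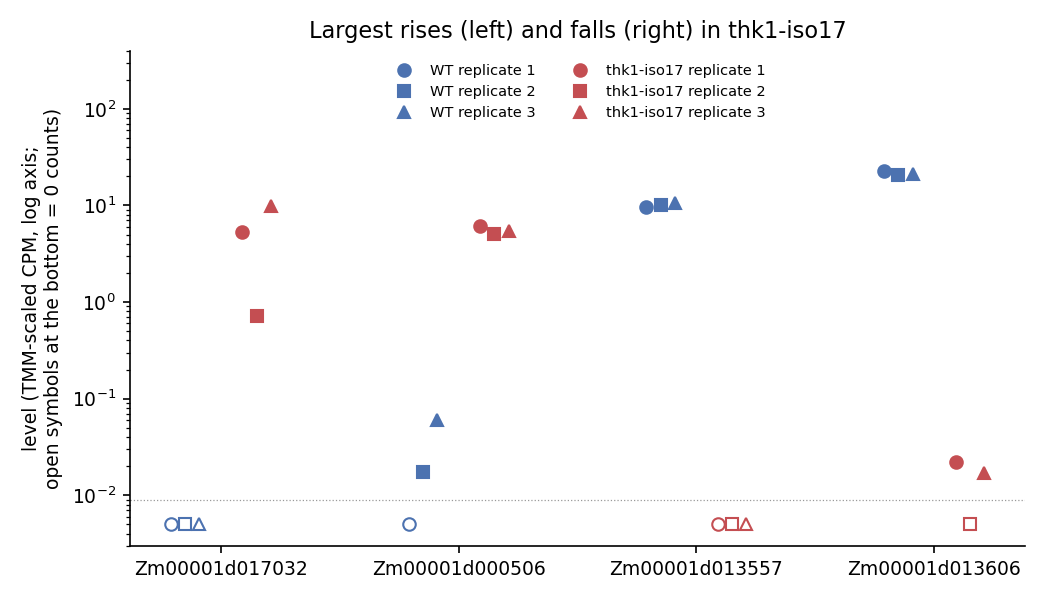
Levels of the 4 identifiers in each library, in CPM on a log axis, with WT in blue, thk1-iso17 in red and a symbol shape per replicate. Open symbols below the dotted line stand for 0 counts. The groups are separated in all 4, and thk1-iso17 replicate 2 is the low library for Zm00001d017032, at 0.712 CPM.

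Zm00001d013557 and Zm00001d013606 carry neighbouring numbers, and lower genes were frequent around them in the order of identifiers. The nuclear gene models were divided into blocks of 250 consecutive numbers, of which 215 held at least 30 tested genes. The median share of lower genes over these blocks was 5.77%. The highest shares were 21.6% and 18.8%, in 2 adjacent blocks that hold both identifiers, and the highest elsewhere was 13.5%. In these 2 blocks together 56 of 276 tested genes were lower, or 20.3%, against 5.96% of 22349 elsewhere. Higher genes made up 8.33% there and 7.70% elsewhere. The 2 blocks were singled out by these shares, so no test is given. Without thk1-iso17 replicate 3, 69 of their 281 tested genes were lower, or 24.6%, and 26 higher, or 9.25%, against 9.1% lower and 10.6% higher over all genes in that fit. Of the genes tested with all 6 libraries, 28.4% and 21.1% in the 2 blocks were lower in that fit. The highest block elsewhere then had 19.4%, close to the second of the 2. Positions on chromosomes are not used here, and the blocks are an order of identifiers. Whether the thk1-iso17 plants carry sequence of another parent in this run was not tested, so its lower counts are not assigned to the thk1-iso17 allele.

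The fall was uneven within the 2 blocks. They held 231 genes that reached 1 CPM in WT, and thk1-iso17 kept a median of 82.3% of the WT level in these, with quartiles of 59.8% and 106%. Elsewhere the median was 97.5%, with quartiles of 79.8% and 122%. At or under 10% of WT were 8 of the 231 genes and 15 of the 18140 genes elsewhere. At or above 200% of WT were 11 and 855. The 8 near lost genes lay within 186 consecutive numbers. Of the 4 genes with 0 counts in thk1-iso17 and at least 10 in every WT library, 3 lay in the 2 blocks.

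Among the thk1-iso15 libraries, replicate 3 differed from replicates 1 and 2 in some of these 8 genes. In thk1-iso15 replicates 1 and 2 each of the 8 stood at 36.7% of WT or more. In thk1-iso15 replicate 3 the last 3 of the 8 in the order of identifiers stood at or under 10% of WT, and these include Zm00001d013557 and Zm00001d013606. The last of the 8 had 0.913, 1.16 and 1.06 CPM in WT (here scaled over all 9 libraries), 1.25, 2.47 and 0.0662 CPM in thk1-iso15 replicates 1, 2 and 3, and 0 in each thk1-iso17 library. Over all 231 genes the median level in thk1-iso15 replicates 1, 2 and 3 was 89.1%, 101% and 94.3% of WT. Outside the 2 blocks, 9 of the 15 near lost genes had a mean in thk1-iso15 at or under 10% of WT. The same WT libraries entered both the selection of these genes and this ratio, and the share over all genes is not given here. No agreement between the alleles is therefore read from this count.

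**Figure D4:**
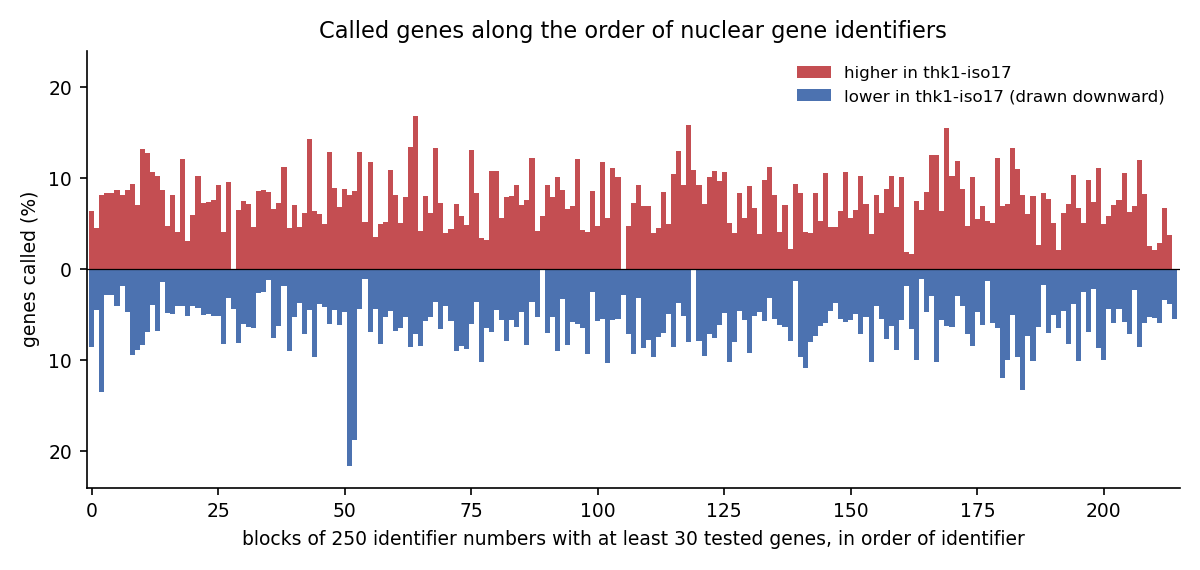
Blocks of 250 identifier numbers in order along the horizontal axis. Bars upward (red) give the percentage of tested genes called higher in thk1-iso17 and bars downward (blue) the percentage called lower. The 2 adjacent blocks with 21.6% and 18.8% lower genes stand out from a median of 5.77%, while higher genes do not stand out there.

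Mitochondrial genes could be named, and none of the 13 tested passed the edgeR test, against 13.8% of all genes. An unadjusted p under 0.05 was found for 2 of the 13, against 31.2% of all genes. Voom called 0. DESeq2 called 2, rps7 and ccmFN. In 12 of the 13 genes thk1-iso17 replicate 3 lay above every WT library, while in 11 of the 13 replicates 1 and 2 both lay within the WT range. Replicate 3 had been marked for high organelle RNA before this comparison. Its high values here and in the genes below largely restate that choice. Replicate 3 stood at a median of 12 times the mean of replicates 1 and 2. Within WT, replicate 2 was the highest library in 12 of the 13 genes. How far counts of mitochondrial RNA in poly(A) libraries reflect its level in the tissue was not tested. The median log2 fold change was 2.06 with all 6 libraries and -0.20 without replicate 3.

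Among mitochondrial genes the ribosomal RNAs rrn26 and rrn18 had the most counts. The large-subunit RNA rrn26 stood at 109, 238 and 99.8 CPM in WT replicates 1, 2 and 3 and at 134, 149 and 785 CPM in thk1-iso17. Only replicate 3 lay above the WT range. The log2 difference of 1.26 (SE 0.66) did not pass the test (edgeR adjusted p = 0.234) and was -0.09 with replicate 3 left out. The small-subunit RNA rrn18 stood at 29.9, 81.2 and 22.8 CPM in WT and at 27.7, 36.8 and 295 CPM in thk1-iso17. The same library was high. For rrn18 the log2 difference was 1.42 (SE 0.86, adjusted p = 0.296 by edgeR), and it became -0.49 with that library left out. The smallest, rrn5, had 0, 1.15 and 0.595 CPM in WT and 0.275, 0.828 and 4.13 CPM in thk1-iso17.

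In genes of the respiratory chain and ATP synthase, replicate 3 was again the highest library. The NADH dehydrogenase subunit gene nad4 stood at 0.142, 1.49 and 0.992 CPM in WT and at 0.758, 1.67 and 13.3 CPM in thk1-iso17. This was a log2 difference of 2.49 (SE 1.04, adjusted p = 0.143 by edgeR), which became 0.38 with replicate 3 left out. For cox1, a cytochrome c oxidase subunit gene, levels were 0.380, 1.21 and 0.754 CPM in WT and 0.604, 0.924 and 9.17 CPM in thk1-iso17. The log2 difference was 2.13 (SE 0.97, adjusted p = 0.172 by edgeR) and became -0.10 with replicate 3 left out. In cox3, of the same enzyme, replicate 3 had 6.31 CPM beside at most 0.920 in any other library. The ATP synthase subunit gene atp4 had 6.94 CPM in replicate 3, 22.2 times the mean of replicates 1 and 2 and the largest such ratio.

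Genes for mitochondrial gene expression included an exception. For rps7, a small-subunit ribosomal protein gene, levels were 0.0950, 0.260 and 0.0397 CPM in WT and 0.231, 0.212 and 2.74 CPM in thk1-iso17. Its log2 fold change of 2.91 (SE 1.15) had an edgeR adjusted p of 0.122 and became 0.66 without replicate 3. DESeq2 gave an adjusted p of 0.0292. The maturase gene mat-r, for intron splicing, had 2.66 CPM in replicate 3 and at most 0.364 CPM elsewhere. In rps1, also for a small-subunit protein, these values were 2.33 and 0.417 CPM. The exception was rps2B, of the same subunit, at 0, 0.278 and 0.278 CPM in WT and 0.154, 0.135 and 0.169 CPM in thk1-iso17. Replicate 3 was not high for this gene, with a log2 difference of -0.41 (SE 0.80, adjusted p = 0.762 by edgeR). The gene ccmFN, for cytochrome c maturation, had too few counts for the edgeR test, with 2, 7 and 7 counts in WT and 13, 13 and 156 in thk1-iso17 (DESeq2 adjusted p = 0.0196).

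**Figure D5:**
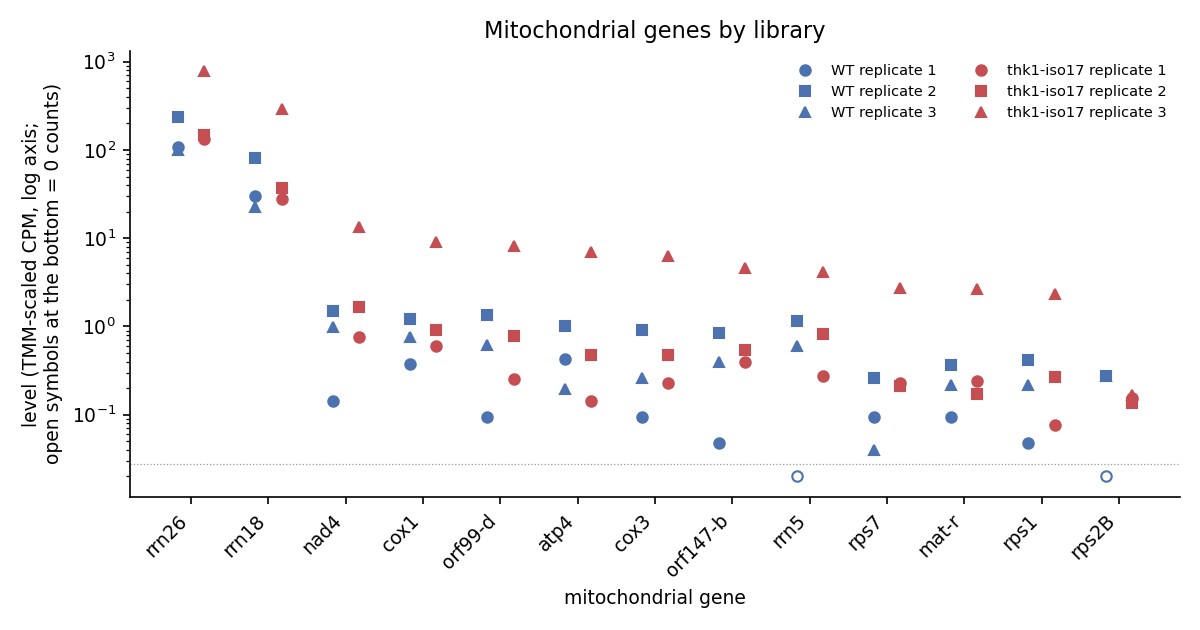
Levels of the 13 mitochondrial genes tested, in CPM on a log axis, with WT in blue, thk1-iso17 in red and a symbol shape per replicate. Open symbols stand for 0 counts. The red triangle, thk1-iso17 replicate 3, lies above all other libraries for every gene shown except rps2B.

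Annotated non-coding RNAs, which carry Ensembl identifiers and are not named here, were called less often than the 13.8% of all genes tested, though this difference was not tested. Of 205 tested, 3 were higher and 9 lower in thk1-iso17 by the edgeR test, together 5.85%. The groups did not overlap in any of the 12, as in 3136 of all 3144 called genes. The 9 lower ones had log2 fold changes from -2.40 to -1.28 and WT means of at most 2.78 CPM. The largest fall was from 1.04, 0.920 and 1.09 CPM in WT to 0.143, 0.270 and 0.169 CPM in thk1-iso17 (edgeR adjusted p = 0.0150). The largest rise was from 0.617, 0.243 and 0.258 CPM to 1.80, 2.14 and 1.12 CPM, or 2.26 on the log2 scale (SE 0.50, adjusted p = 0.0219 by edgeR). Over all 205 the median log2 fold change was 0.45, with 120 positive. Without replicate 3 it was -0.39, with 62 of 212 positive. In that fit 6 were higher and 12 lower, against 10.6% and 9.1% of all genes. Replicate 3 was the highest of all 6 libraries in 94 of the 205. The part of organelle RNA or RNA quality in these values was not tested.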

How the data were processed

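Each deposited table holds raw counts for 46430 identifiers, followed by 5 summary lines. Tools named in the submitters' processing notes are HTSeq 0.11.1, StringTie 1.3.6, SAMtools 1.9 and HISAT2 2.1.0, with the build B73 RefGen_v4. Their settings, the annotation and any use of strand were not given in the sources used here, so reads of overlapping, antisense or near-identical genes are uncertain. The summary lines entered neither library sizes nor tests. Genes took 59.2% to 65.1% of the entries.

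The analysis ran in R 4.3.3 with edgeR 4.0.16, using filterByExpr, TMM factors and a quasi-likelihood test on the 6 libraries with no covariate, Benjamini-Hochberg adjusted over all genes tested. TMM factors were 0.797 to 0.941 in WT and 1.04 to 1.23 in thk1-iso17. Standard errors are the fold change over the square root of F. Floors of 3 counts and exact intervals cover counting error only. Names came from the RefSeq table of Zm-B73-REFERENCE-NAM-5.0, another build, with no coordinates used. It matched none of the gene lists, so no list was counted. Named were mitochondrial genes, the 10 most abundant WT genes by rank and, as no table named nuclear genes, 2 identifiers in each direction, those with the largest fold change among called genes with a group mean of at least 5 CPM, no overlap and the same direction without thk1-iso17 replicate 3. The most abundant gene near silent in WT and the 2 blocks of identifiers were chosen after their values were seen. The comparison, members and lists were chosen with earlier results of these data known.

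The test was run on simulated data first. Replicates differed beyond counting error (chi-square per degree of freedom 55.2 to 145). Alternatives were RLE and upper quartile factors, TMM without the 100 most abundant genes, nuclear library sizes, no filter, 1 CPM in 3 libraries, DESeq2 1.42.0, voom in limma 3.58.1, all 9 libraries, a replicate block and leaving out each library.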

Additional observations from a re-analysis of the deposited data

Results flagged for a closer look

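Outside the gene comparison, a pair of measures stood above the level in WT in thk1-iso17 replicate 3. Entries not aligned to the genome made up 8.27% of its entries, against 1.62% to 2.54% in WT and 2.1% and 2.28% in thk1-iso17 replicates 1 and 2. Plastid genes, none of which had enough counts to be tested, held 62 counts in it, or 1.29 CPM of its gene counts, against 2 to 18 counts and at most 0.249 CPM in WT.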

How the results depend on the processing

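The number of genes called was 3144. DESeq2 called 4724 genes, 2593 of them higher and 2131 lower. The other scalings, filters, voom and the fit with all 9 libraries called between 2988 and 3371, with higher genes making up between 51.8% and 61.3% of the calls. Leaving out 1 library gave 790 to 4609 genes, 490 to 2476 higher and 300 to 2133 lower, and the genes shared with the 3144 numbered 765 to 2855, all in the same direction. These fits have fewer libraries, and the highest counts came without thk1-iso17 replicate 3. The replicate numbers were not taken to pair the libraries, as the labels state no pairing. The correlations of deviations for numbers 1, 2 and 3 were -0.02, 0.09 and 0.14. Of the 6 libraries, 3 correlated best with their own number. The names of the deposited tables also share a tag between groups for each number, whose meaning is not given in the sources used here. With the number as a replicate block 3864 genes were called, 1936 higher and 1928 lower. The biological coefficient of variation was 0.237 with the block and 0.268 without it. Beyond these values, whether libraries of the same number share a source of variation was not tested. DESeq2 called 2 mitochondrial genes where edgeR called 0. Zm00001d017032 missed the threshold by voom (adjusted p = 0.0531), was not tested under the filter of 1 CPM in 3 libraries, and passed in the other alternatives. Without thk1-iso17 replicate 3 the fold changes of 10 mitochondrial genes turned negative, none of them called with or without it by edgeR. The difference in the share of the 10 most abundant genes ranged from -11.9 to -8.47 percentage points. The difference in genes detected, 1358, ranged from 1240 to 1460 when 1 library was left out, a shift in part above the SD of WT (84.6) and below that of thk1-iso17 (222). It was 956 with depth matched without the 100 most abundant genes and 841 on TMM-scaled library size, both added after seeing the data. In blocks of 100 or 500 identifiers, sizes chosen after seeing the data, the highest share of lower genes was 30% and 13.2%, against 23.1% and 11.1% in blocks outside the 2 described. The gene lists gave no values, as no member was matched.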
